A study of Homo sapiens with 96 samples.

Results

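The lysosomal genes described here are 42 genes, of 60552 gene rows measured, that encode enzymes and membrane proteins of the lysosome, its secreted partner progranulin, and 3 transcription factors. They were taken by symbol from a list chosen with earlier results of these data known, and all 42 symbols matched a row. By role the list holds 11 proteases, 10 glycosidases, 4 sulfatases, 8 proteins of lipid handling, 2 phosphatases, 3 membrane glycoproteins, progranulin and the 3 transcription factors TFEB, TFE3 and MITF. Their RNA was followed by sequencing in 6 human cell lines of acute myeloid leukemia (AML), namely THP1, MV411 and MOLM13, which carry KMT2A fusions, the NPM1-mutant line OCIAML3, Kasumi1, which carries the RUNX1-RUNX1T1 fusion, and HL60. Each line received 552A, ATRA, Combo or DMSO. 552A is the label of the cells given 1 μM GSK2879552, an inhibitor of the histone demethylase LSD1 (gene KDM1A). ATRA is 100 nM all-trans retinoic acid, the ligand of retinoic acid receptors that drives myeloid cells to mature, and Combo is both drugs at those doses. The DMSO cells received 0.1% of the solvent alone. RNA was taken on days 2 and 4, with 2 libraries for each of the 48 groups of line, treatment and day, 96 libraries in all. The study asked what LSD1 inhibition adds to retinoic acid in differentiating AML cells. All 6 are long-cultured lines without stroma or other blood cells around them.

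Lysosomes are acidic organelles in which hydrolases take apart proteins, glycans, sulfated sugars, lipids and nucleic acids that arrive by endocytosis, phagocytosis and autophagy. Most of these enzymes are made in the endoplasmic reticulum, marked with mannose 6-phosphate in the Golgi and carried to the organelle, whose membrane is lined by LAMP proteins. TFEB, TFE3 and MITF are related basic helix-loop-helix leucine zipper factors that enter the nucleus when the kinase complex mTORC1 is inactive and bind E-boxes in promoters of lysosomal genes. Macrophages and neutrophils are rich in lysosomes and in cathepsins, and myeloid maturation is known for a rise of these proteins.

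The promoters below are shown because they carry the palindrome CACGTG, the core of the sites that TFEB and its relatives are known to bind, or belong to NPC2 or FUCA1. The RNA of these 2 genes rose across lines with Combo, though not all larger risers are shown. RefSeq promoter windows from 250 bases before to 50 bases after a transcript start (GRCh38.p14) were listed for 30 of the 42 members, 49 windows in all. CACGTG stood in a window of 9 members (ACP5, ARSB, CD63, CTSA, CTSD, DPP7, GAA, LAMP1 and NEU1), which is 30% of the 30, and in 7.26% of all 35116 windows or 8.77% of all 27305 genes. The longer palindrome TCACGTGA, which contains CACGTG, stood in 3 members (CTSA, GAA and LAMP1, 10%), against 0.98% of all windows and 1.18% of all genes. Another motif, GAGGAAGT or its reverse complement ACTTCCTC, an ETS-type sequence of the kind the myeloid factor SPI1 binds, stood in 1 member, ACP5 (3.33%), against 2.59% of all windows and 3.15% of all genes. All motifs were searched on both strands. Capitals mark CACGTG or TCACGTGA. The first 4 windows hold one: LAMP1 (a membrane glycoprotein), CTSA (cathepsin A), CTSD (cathepsin D) and GAA (acid alpha-glucosidase). They lie at chr13:113296989-113297288 on the plus strand, chr20:45891085-45891384 on the plus strand, chr11:1763878-1764177 on the minus strand and chr17:80101331-80101630 on the plus strand. The last pair holds none of the 3 motifs and belongs to NPC2, a cholesterol-binding protein, at chr14:74493256-74493555 on the minus strand, and FUCA1, an alpha-L-fucosidase, at chr1:23868241-23868540 on the minus strand. NPC2 has another listed window, not shown.
LAMP1: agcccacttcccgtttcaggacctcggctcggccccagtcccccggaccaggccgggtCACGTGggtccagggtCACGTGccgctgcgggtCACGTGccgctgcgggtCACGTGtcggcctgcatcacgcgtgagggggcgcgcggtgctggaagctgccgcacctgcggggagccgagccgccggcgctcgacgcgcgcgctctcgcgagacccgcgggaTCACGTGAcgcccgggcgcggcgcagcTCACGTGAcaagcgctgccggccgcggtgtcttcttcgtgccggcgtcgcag
CTSA: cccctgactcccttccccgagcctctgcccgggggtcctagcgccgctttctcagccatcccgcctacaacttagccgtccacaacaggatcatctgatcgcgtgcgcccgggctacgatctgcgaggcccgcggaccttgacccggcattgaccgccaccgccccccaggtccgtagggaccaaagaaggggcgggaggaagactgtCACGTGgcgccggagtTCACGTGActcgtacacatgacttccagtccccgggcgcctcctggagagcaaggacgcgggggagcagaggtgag
CTSD: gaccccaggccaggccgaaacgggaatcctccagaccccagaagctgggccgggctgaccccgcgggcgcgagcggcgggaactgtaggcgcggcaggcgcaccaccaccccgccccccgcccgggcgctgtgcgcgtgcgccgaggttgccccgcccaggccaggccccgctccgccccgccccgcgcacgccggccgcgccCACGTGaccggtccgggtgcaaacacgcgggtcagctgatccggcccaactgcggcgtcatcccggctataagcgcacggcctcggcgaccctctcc
GAA: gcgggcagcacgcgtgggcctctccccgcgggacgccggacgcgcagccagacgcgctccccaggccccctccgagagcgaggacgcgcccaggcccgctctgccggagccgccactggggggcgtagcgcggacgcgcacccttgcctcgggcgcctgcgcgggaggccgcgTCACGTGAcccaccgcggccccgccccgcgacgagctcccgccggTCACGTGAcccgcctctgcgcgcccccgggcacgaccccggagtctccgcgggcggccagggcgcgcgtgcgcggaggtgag
NPC2: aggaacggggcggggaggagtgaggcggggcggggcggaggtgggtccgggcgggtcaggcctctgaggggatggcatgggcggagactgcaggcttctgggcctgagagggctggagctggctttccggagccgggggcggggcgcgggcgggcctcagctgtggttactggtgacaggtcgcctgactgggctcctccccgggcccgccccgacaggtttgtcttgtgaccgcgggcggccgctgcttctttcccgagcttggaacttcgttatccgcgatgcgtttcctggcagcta
FUCA1: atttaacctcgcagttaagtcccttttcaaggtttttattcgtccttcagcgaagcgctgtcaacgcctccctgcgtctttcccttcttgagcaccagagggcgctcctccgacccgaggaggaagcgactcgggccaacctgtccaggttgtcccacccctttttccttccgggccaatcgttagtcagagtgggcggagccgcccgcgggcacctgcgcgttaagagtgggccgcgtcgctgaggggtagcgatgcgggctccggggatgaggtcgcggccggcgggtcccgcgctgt
At day 4 the 9 members with CACGTG and the 21 with a listed window but no CACGTG differed little with 552A, with medians of the log2 fold change against DMSO of -0.02 and 0.12. With ATRA, 1 of the 9 and 5 of the 21 rose, with medians of 0.45 and 0.72, where 4.66% of all genes rose and 3.26% fell. With Combo, 1 of the 9 rose and 1 fell, with a median of 0.39, and 10 of the 21 rose, with a median of 0.70, where 13.5% of all genes rose and 11.7% fell. With Combo the counts of the 9 are near those shares in this fit. After a correction for GC content and length, DPP7 no longer passed edgeR's test with Combo (adjusted p = 0.334). ACP5 (adjusted p = 0.00625), CTSA (0.0323), CTSD (0.0271), GAA (0.0471) and LAMP1 (0.0249) then rose with Combo. The shares of the 21 and of all genes with that correction are not given here. A match is a description of these letters only.

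Libraries held 12822146 to 40954794 counts (median 22877617), and the members took between 0.274% and 2.71% of a library. Levels are given as CPM, which are counts scaled to the library size after TMM adjustment. In DMSO cells the myeloid genes PTPRC, CD33, SPI1 and CSF3R were detected in every line. MPO ran from 1.17 CPM in OCIAML3 to 11004 CPM in Kasumi1, CD34 was high in Kasumi1 alone (75.0 CPM), and the epithelial gene EPCAM reached 114.5 CPM in Kasumi1. Duplicate libraries often differed along gene GC content, with slopes between -0.99 and 0.39 log2 units per 10% GC. In 5 libraries, said below to stand apart, the slope was the steepest of their line. They are the second 552A libraries of OCIAML3 (-0.99) and THP1 (-0.84) at day 2, and 3 of day 4. These are the second MV411 Combo (-0.74), first Kasumi1 Combo (-0.67) and first MOLM13 552A (-0.49) libraries. None is an ATRA or DMSO library. Steeper than that of MOLM13, yet not among the 5, were the second MV411 DMSO (-0.58), OCIAML3 Combo (-0.54) and HL60 ATRA (-0.51) libraries of day 4. The members have a median GC content of 52.5%, against 47.3% for the genes with a mean log2 CPM above 2, and DPP7 (66.5%), CTSD (64.0%) and GRN (61.8%) have more than most. Values after a correction for GC content and length are given for the calls across lines at day 4 that it changes, and as counts for the calls within lines. Whether the 2 libraries of a group came from separate cultures is not stated, and a p-value within a line therefore covers the spread of these libraries alone, which may be technical. The tests between lines, with DMSO and of the drug effects, also take their spread from single libraries, with the 2 days pooled for DMSO. In such bulk RNA, fewer cells that express a gene and less RNA per cell cannot be told apart.

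With DMSO the lines differed widely in their lysosomal RNA before any drug. Per kilobase of exon, and as a median of the 6 lines at day 4, prosaposin (PSAP), the precursor of the saposins that help enzymes reach sphingolipids, had the highest level, 83.4 CPM per kb, with 30.6 in MV411 and 258 in Kasumi1. The membrane proteins CD63 (51.9) and LAMP2 (47.9) and progranulin, GRN (47.2), followed, and their line ranges overlapped. The lowest were MITF (0.54), the heparan sulfatase SGSH (0.099), acid phosphatase 5, ACP5 (0.047), and legumain, LGMN (0.033 CPM per kb). Over both days, all 40 members tested differed between lines at an adjusted p under 0.05 (edgeR), a share close to the 92.8% of all genes that did. The smallest p belonged to PPT1, the thioesterase that removes palmitate from proteins, CTSL, the endopeptidase cathepsin L, and CTSH, the aminopeptidase cathepsin H. PPT1 had 6114 and 5903 CPM in THP1 at day 4, and its other 10 DMSO libraries of that day lay between 128 and 306 CPM (edgeR adjusted p between lines = 1.48e-22). CTSL had 74.6 and 67.3 CPM in THP1, 22.6 and 17.99 CPM in HL60 and 0.0406 and 0.0757 CPM in MV411 (adjusted p = 5.2e-22). CTSH had 127 and 109.7 CPM in THP1, 26.8 and 28.97 CPM in OCIAML3 and 0.517 and 0.911 CPM in HL60 (adjusted p = 5.4e-21). THP1, a line with monocyte features, was the highest for all 3 genes, and its 2 libraries did not overlap with those of any other line. Exons of PPT1 overlap CAP1 on the opposite strand over 23.4% of their length, and since the strand setting of the counting is not given in the sources used here, reads of the 2 genes may not be told apart.

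**Figure D1:**
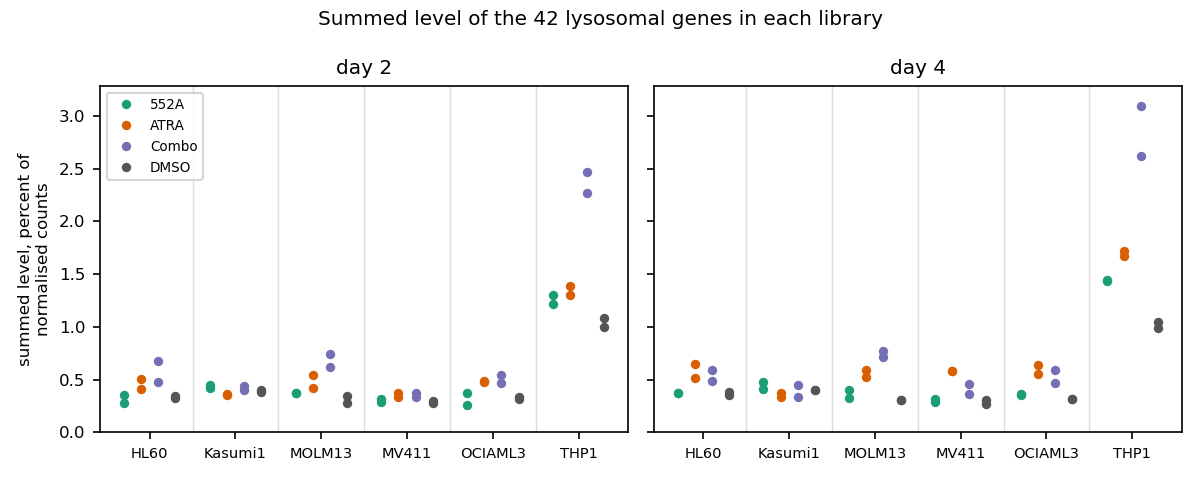
Summed level of the 42 lysosomal genes in each library at day 2 and day 4 (panels), as percent of TMM-scaled counts (y axis), by line and treatment (x axis, 552A, ATRA, Combo, DMSO), with 1 point a library. At day 4 THP1 with Combo averages 2.86%, against 1.02% with DMSO, and the Kasumi1 means lie between 0.358% and 0.443% in the 4 treatments.

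The mean summed level of all members at day 4 moved furthest from DMSO, in percentage points, in THP1 with each drug. It moved least in Kasumi1 with ATRA and with Combo, and in HL60 with 552A. In THP1 it averaged 1.44% of TMM-scaled counts with 552A, 1.7% with ATRA, 2.86 ± 0.34% with Combo and 1.02% with DMSO (SD, n = 2). In MOLM13 it averaged 0.365% with 552A, 0.56% with ATRA, 0.743% with Combo and 0.307% with DMSO. In MV411 it averaged 0.301% with 552A, 0.582% with ATRA, 0.413% with Combo and 0.288% with DMSO. HL60 had 0.375% with 552A, 0.58% with ATRA, 0.538% with Combo and 0.366% with DMSO, and OCIAML3 0.3601% with 552A, 0.599% with ATRA, 0.528% with Combo and 0.318% with DMSO. Kasumi1 had 0.443% with 552A, 0.358% with ATRA, 0.391% with Combo and 0.399% with DMSO. In THP1 with DMSO, PPT1 alone averaged 6009 ± 149 CPM (SD, n = 2) and made up most of the sum. THP1 thus began from the highest level, which widens its changes in percentage points. As a ratio to DMSO, the sum rose more with ATRA in MV411, OCIAML3 and MOLM13 than in THP1. With 552A and with Combo the ratio was highest in THP1. No test was made of the sums.

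Across the 6 lines, with the duplicate libraries summed and the lines as replicates, Combo raised the most members and 552A alone the fewest. At day 4, 19 of 42 members (45.2%) rose with Combo and 1 (2.38%) fell, where 13.5% of all genes rose and 11.7% fell. With ATRA, 9 (21.4%) rose and none fell, where 4.66% of genes rose and 3.26% fell. The members that rose thus made up a larger share than among all genes, and those that fell a smaller one. Since the list was chosen with earlier results of these data known, these shares only describe it. With 552A, no member passed edgeR's test at an adjusted p under 0.05, where 0.345% of all genes rose and 0.0138% fell, 6 members had an unadjusted p under 0.05, and DESeq2 also called none. The median log2 fold change of the members was 0.08 with 552A, 0.71 with ATRA and 0.64 with Combo, against -0.02, -0.01 and 0.02 for all genes. The 3 comparisons share their DMSO libraries, so they are not independent of each other. At day 2, 2 members rose with 552A, where 1.86% of genes rose and 0.741% fell, and 7 rose with ATRA, where 5.73% rose and 5.18% fell. With Combo 21 rose and 2 fell at day 2, where 16% of genes rose and 13.4% fell. The count with ATRA at day 4 was 19 with DESeq2. It rested on the set of lines, since it was 1 without OCIAML3, 2 without MOLM13, 3 without HL60, MV411 or THP1, and 18 without Kasumi1. The count with Combo at day 4 was 10 without THP1, where the calls of CTSH, LGMN, HEXA, ASAH1, PSAP, GM2A, ACP2, ACP5, TFEB and MITF were lost, and 13 without MOLM13, where 7 of these 10 were lost (all but LGMN, TFEB and MITF). At day 2 the count with ATRA was 0 without OCIAML3, 1 without HL60 or THP1, 3 without MOLM13 or MV411 and 12 without Kasumi1, and the count with Combo was 14 without HL60 or THP1.

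**Figure D2:**
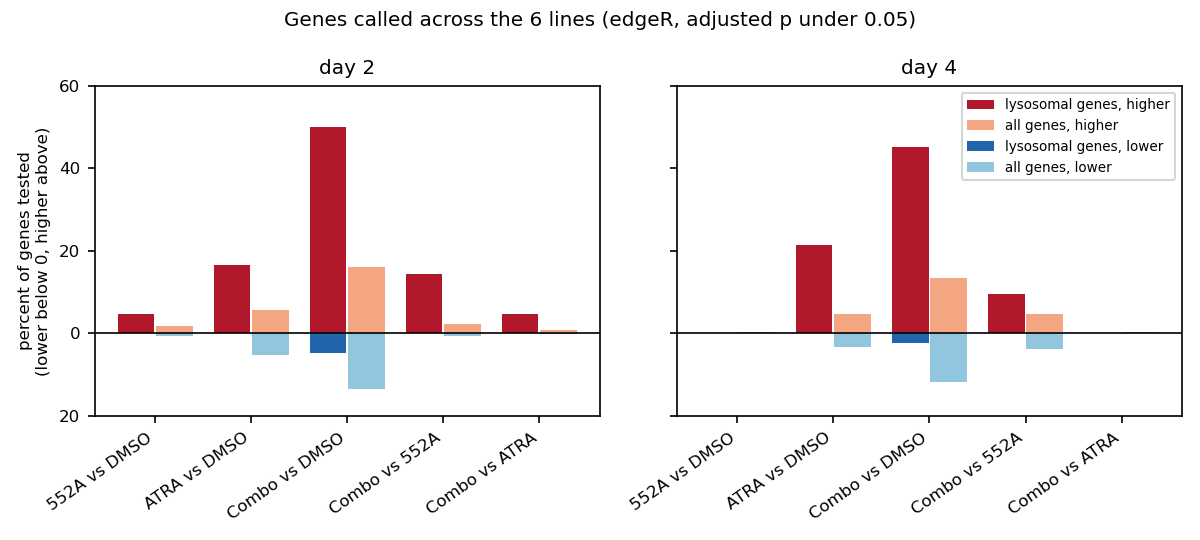
Share of the 42 members called higher or lower (adjusted p under 0.05, edgeR) across lines in each comparison and day, beside the share of all genes tested (percent, y axis). With Combo at day 4, 19 members rose and 1 fell, against 13.5% and 11.7% of genes, and with 552A at day 4 no member was called.

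Among the 11 proteases, 4 rose with ATRA, and 6 rose and 1 fell with Combo at day 4, and their median log2 fold changes were 0.16 with 552A, 1.05 with ATRA and 1.14 with Combo. Cathepsin S (CTSS), which trims the invariant chain for antigen presentation, had 79.7 to 504 CPM (median 165) with 552A, 62.5 to 716 CPM (median 228) with ATRA, 158 to 1568 CPM (median 264) with Combo and 32.8 to 202 CPM (median 92.8) with DMSO over the 12 libraries of each treatment. In HL60 it had 86.4 and 79.7 CPM with 552A, 267 and 410.01 CPM with ATRA, 305 and 327 CPM with Combo and 34.5 and 32.8 CPM with DMSO. In each of the 6 lines both Combo libraries lay above both DMSO libraries. CTSS rose 3.51-fold with Combo (log2 fold change 1.81 ± 0.33, adjusted p = 0.00113, n = 6 lines) and 2.47-fold with ATRA (log2 fold change 1.30 ± 0.33, adjusted p = 0.0228). The call with ATRA was lost without HL60, MOLM13, OCIAML3 or THP1.

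Cathepsin B (CTSB), a cysteine protease with both endopeptidase and carboxypeptidase activity, had 627 and 565 CPM with 552A, 798 and 659 CPM with ATRA, 2384 and 1753 CPM with Combo and 235 and 205 CPM with DMSO in THP1. In MOLM13 it had 274 and 371 CPM with 552A, 482 and 621 CPM with ATRA, 734 and 684 CPM with Combo and 269 and 274 CPM with DMSO. The ATRA and Combo libraries of MOLM13 lay above all of its 552A and DMSO libraries. CTSB rose 2.96-fold with Combo over the 6 lines (log2 fold change 1.56 ± 0.29, adjusted p = 0.00123) and 2.07-fold with ATRA (log2 fold change 1.05 ± 0.28, adjusted p = 0.0295). Cathepsin Z (CTSZ), a carboxypeptidase, rose 2.76-fold with Combo (log2 fold change 1.47 ± 0.27, adjusted p = 0.00121) and 2.42-fold with ATRA (log2 fold change 1.27 ± 0.27, adjusted p = 0.0103). Its highest pair of libraries, 1526 and 1285 CPM, was that of THP1 with Combo, against 222 and 220.5 CPM with DMSO. Kasumi1 had 107 and 198 CPM with Combo and 165 and 169.8 CPM with DMSO, which overlap. These Combo libraries of Kasumi1 had GC slopes of -0.67 and 0.18. The ATRA call of CTSB was lost without any 1 line other than Kasumi1, and that of CTSZ without OCIAML3. Cathepsin K (CTSK), a collagen-cleaving protease known from osteoclasts, stayed low, at 1.32 to 6.75 CPM (median 4.95) with Combo and 1.36 to 5.82 CPM (median 2.95) with DMSO, and rose 1.65-fold (log2 fold change 0.73 ± 0.23, adjusted p = 0.0269), a call lost without HL60, Kasumi1, MV411 or OCIAML3 and without the 5 libraries that stand apart (adjusted p = 0.0977).

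Cathepsin H differed in its pattern between lines. In HL60 it had 0.917 and 1.18 CPM with 552A, 6.79 and 5.58 CPM with ATRA, 44.1 and 44.95 CPM with Combo and 0.517 and 0.911 CPM with DMSO. In OCIAML3 it had 55.8 and 64.1 CPM with 552A, 18.6 and 18.3 CPM with ATRA, 30.5 and 32.4 CPM with Combo and 26.8 and 28.97 CPM with DMSO. In HL60 Combo stood far above either drug alone, and in OCIAML3 552A alone was the highest and ATRA lay below DMSO. Across lines CTSH rose 4.38-fold with Combo (log2 fold change 2.13 ± 0.64, adjusted p = 0.0222), a call lost without THP1 (2.12, adjusted p = 0.0706) or MOLM13 (2.28, adjusted p = 0.0511). Within HL60 CTSH rose with Combo (log2 fold change 5.95 ± 0.50, adjusted p = 3.86e-06), and Combo exceeded ATRA (log2 fold change 2.85 ± 0.42, adjusted p = 0.00512), although the excess over ATRA had an adjusted p of 0.06 without the second ATRA library.

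Legumain, an asparaginyl endopeptidase that activates other cathepsins, rose most with Combo in the fit across lines (log2 fold change 4.13 ± 1.11, adjusted p = 0.0124), but this rested on few lines. In THP1 it had 15.6 and 15.8 CPM with 552A, 50.3 and 46.1 CPM with ATRA, 252 and 226 CPM with Combo and 0.658 and 0.647 CPM with DMSO. Within THP1 it rose with 552A (log2 fold change 4.56 ± 0.30, adjusted p = 4.12e-06), ATRA (log2 fold change 6.15 ± 0.31, adjusted p = 1.86e-07) and Combo (log2 fold change 8.46 ± 0.33, adjusted p = 1.32e-08). In MOLM13 it had 2.35 and 2.35 CPM with 552A, 0.175 and 0.0965 CPM with ATRA, 3.74 and 3.71 CPM with Combo and 0.339 and 0.243 CPM with DMSO. In MV411 the order differed, with 0.211 and 0.211 CPM with 552A, 2.08 and 1.78 CPM with ATRA, 0.349 and 0.188 CPM with Combo and 0.284 and 0.151 CPM with DMSO. LGMN was therefore high with ATRA and not Combo in MV411, and with 552A and Combo but not ATRA in MOLM13. The DMSO libraries held 13 and 11 counts in THP1, 6 and 4 counts in MOLM13, 7 and 4 counts in MV411 and at most 1 count in HL60, Kasumi1 and OCIAML3, so the size of the fitted change depends on the prior count, and without THP1 it was 2.56 with an adjusted p of 0.0794.

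**Figure D3:**
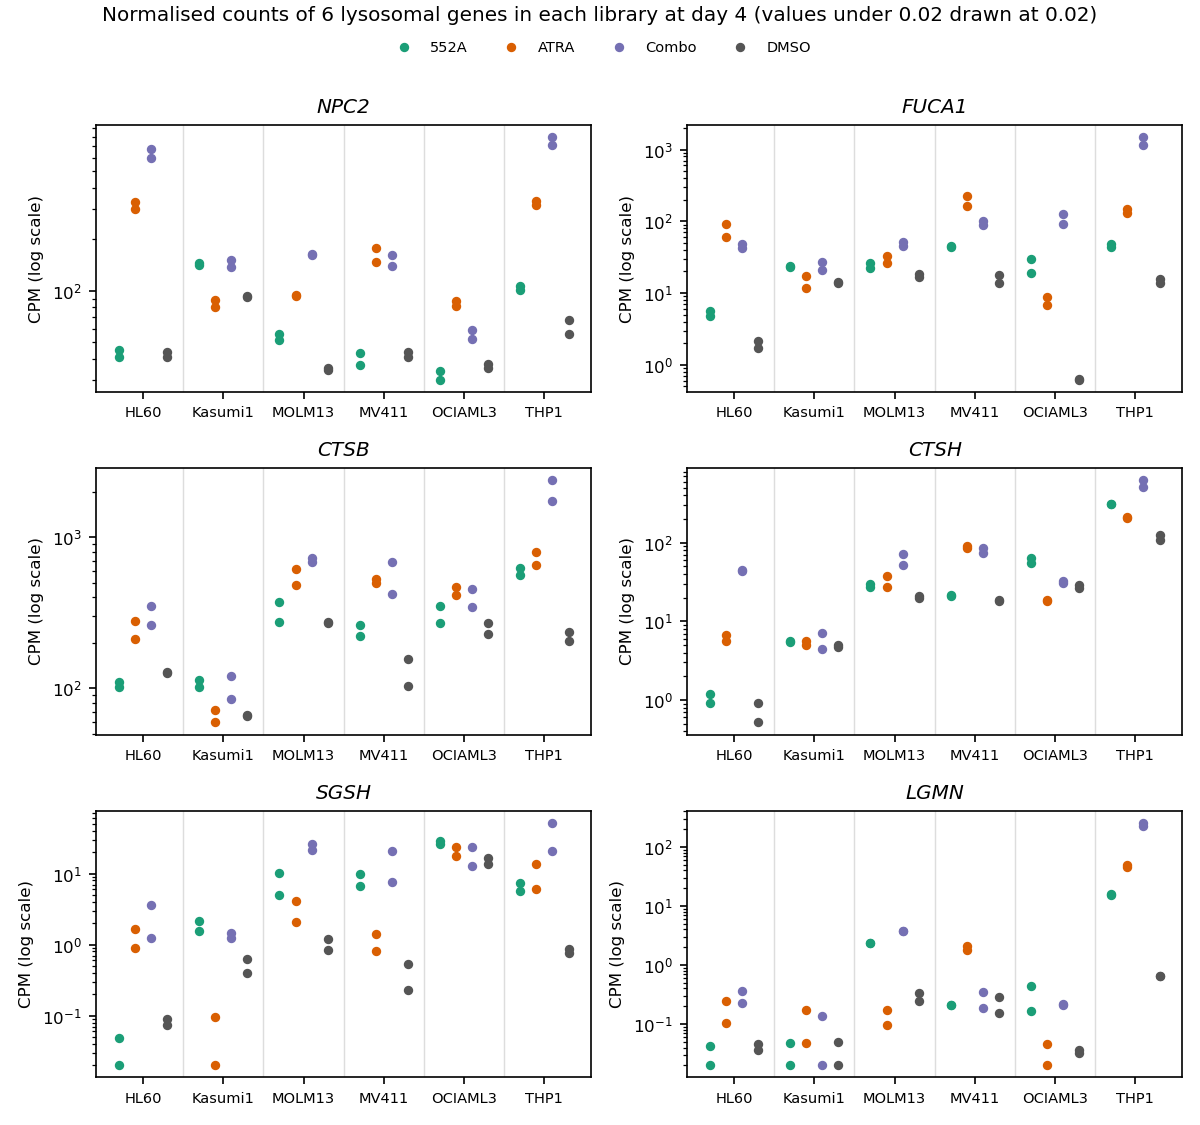
Level of NPC2, FUCA1, CTSB, CTSH, SGSH and LGMN at day 4 in each library (CPM, log axis; values under 0.02 are drawn at 0.02), by line and treatment (552A, ATRA, Combo, DMSO), with 1 point a library. NPC2 lies higher with Combo than with DMSO in both libraries of all 6 lines, and LGMN exceeds 100 CPM only in THP1 with Combo.

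Cathepsin D, the main aspartic protease of lysosomes, had the largest rise with ATRA among the members that passed the test. It had 364 and 481 CPM with ATRA and 71.8 and 19.3 CPM with DMSO in MV411. In OCIAML3 it had 550.1 and 276 CPM with ATRA and 120.2 and 128 CPM with DMSO, and in HL60 278 and 46.7 CPM with ATRA and 39.2 and 30.5 CPM with DMSO. Both ATRA libraries lay above both DMSO libraries in these 3 lines, in THP1 and in MOLM13, but the ATRA duplicates of HL60 differed several fold. Across lines CTSD rose 3.73-fold with ATRA (log2 fold change 1.90 ± 0.49, adjusted p = 0.0261), a call lost without HL60, MOLM13, MV411 or OCIAML3. In THP1 it had 1727 and 369 CPM with Combo and 80.3 and 80.02 CPM with DMSO, and in HL60 46.8 and 15.6 CPM with Combo and 39.2 and 30.5 CPM with DMSO. Combo did not pass the test across lines (log2 fold change 0.98 ± 0.50, adjusted p = 0.153). After correction for GC content and length it did (1.47, adjusted p = 0.0271). Its log2 fold change with 552A was -0.25 ± 0.47 (adjusted p = 0.959). In HL60 at day 4 the first and second ATRA libraries had GC slopes of 0.37 and -0.51, and the THP1 Combo libraries 0.24 and -0.44. The MV411 DMSO libraries had slopes of 0.16 and -0.58. The log2 fold change of CTSD with ATRA in MV411 ran from 2.55 to 4.62 when 1 library was left out. Exons of CTSD overlap those of AC068580.4 on the same strand over 41.7% of their length, so its counts are uncertain.

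DPP7, a dipeptidyl peptidase, was the single member that fell across lines with Combo. It had 15.5 to 392 CPM (median 64.7) with Combo and 22.9 to 336 CPM (median 129) with DMSO over 12 libraries each. The ranges overlap, the Combo mean was lower in all 6 lines, and no line passed the test alone. The change had log2 fold change -0.76 ± 0.23, adjusted p = 0.0203. DPP7 has the highest GC content of the members, and after the GC correction the change was -0.14 with an adjusted p of 0.334. Without the 5 libraries that stand apart it was -0.50 with an adjusted p of 0.14, and the call was also lost without HL60, Kasumi1 or OCIAML3.

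Of the 10 glycosidases, 1 rose with ATRA and 3 rose with Combo, and the median log2 fold changes were 0.03 with 552A, 0.36 with ATRA and 0.24 with Combo. FUCA1, which removes fucose from glycans and whose promoter is given above, was the largest riser of this group. In OCIAML3 it had 30.2 and 18.9 CPM with 552A, 8.75 and 6.76 CPM with ATRA, 128 and 90.7 CPM with Combo and 0.621 and 0.626 CPM with DMSO. In THP1 it had 47.6 and 43.3 CPM with 552A, 131 and 149 CPM with ATRA, 1175 and 1472 CPM with Combo and 15.7 and 13.8 CPM with DMSO. Both lines showed Combo above either drug alone, with no overlap. In HL60 FUCA1 had 4.73 and 5.57 CPM with 552A, 59.4 and 90.8 CPM with ATRA, 42.6 and 48.4 CPM with Combo and 2.14 and 1.73 CPM with DMSO, and in MV411 45.1 and 43.3 CPM with 552A, 221 and 166 CPM with ATRA, 89.2 and 100.1 CPM with Combo and 13.7 and 18.1 CPM with DMSO. In both of these lines ATRA alone was the highest. Across lines FUCA1 rose 13.6-fold with Combo (log2 fold change 3.77 ± 0.90, adjusted p = 0.00638), with higher means in 6 of 6 lines. The ATRA estimate was 2.62 ± 0.86 (adjusted p = 0.0641) and the 552A estimate 1.40 ± 0.79 (adjusted p = 0.776), neither of which passed the test.

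Beta-glucuronidase (GUSB), which cleaves glucuronic acid from glycosaminoglycans and is often taken as a reference gene in expression assays, rose 1.89-fold with ATRA (log2 fold change 0.92 ± 0.18, adjusted p = 0.0066), the smallest p of any member with that drug. It had 69.9 to 297 CPM (median 144) with ATRA and 37.8 to 118 CPM (median 74.5) with DMSO, and its ATRA mean was higher in 6 of 6 lines. With Combo it rose by 0.70 ± 0.18 on the log2 scale (adjusted p = 0.00895). HEXA, the alpha subunit of beta-hexosaminidase, had 72.9 to 326 CPM (median 115) with Combo and 55.2 to 162 CPM (median 71.8) with DMSO, and rose by 0.57 ± 0.21 (adjusted p = 0.0488). This call was lost without any 1 line other than HL60 or Kasumi1, without the 5 libraries that stand apart (adjusted p = 0.056) and with the GC correction (0.41, adjusted p = 0.127). MAN2B1, an alpha-mannosidase, was the member with the smallest p for 552A, at 153 to 426 CPM (median 278) with 552A and 92.4 to 226 CPM (median 161) with DMSO. Its mean was higher with 552A in 6 of 6 lines, but the change did not pass the test (log2 fold change 0.69 ± 0.20, adjusted p = 0.184). The GC correction gave it a call with Combo (0.57, adjusted p = 0.0247).

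Among the 4 sulfatases none rose with ATRA and 2 rose with Combo, and the group had median log2 fold changes of 0.33 with 552A, 0.71 with ATRA and 0.95 with Combo. SGSH, which removes N-linked sulfate from heparan sulfate, was among the members that rose with 552A within a line. In MV411 it had 6.60 and 9.98 CPM with 552A, 0.824 and 1.39 CPM with ATRA, 20.7 and 7.52 CPM with Combo and 0.528 and 0.227 CPM with DMSO. In THP1 it had 7.31 and 5.64 CPM with 552A, 13.7 and 6.00 CPM with ATRA, 51.1 and 20.6 CPM with Combo and 0.861 and 0.764 CPM with DMSO. The 552A and Combo libraries of MV411 stood above those with ATRA or DMSO, and in THP1 Combo stood above the rest. Within MV411 SGSH rose with 552A (log2 fold change 4.42 ± 0.59, adjusted p = 0.000932) and with Combo (log2 fold change 5.19 ± 0.60, adjusted p = 4.49e-05), and within MOLM13 with Combo (log2 fold change 4.50 ± 0.53, adjusted p = 7.63e-05). In HL60, 134 counts with Combo stood against 4 with DMSO, a ratio of normalised counts of 31.5 with an exact 95% interval of 12.01 to 117 for counting error only. Across lines SGSH rose 11.6-fold with Combo (log2 fold change 3.53 ± 0.85, adjusted p = 0.00634). IDS, which removes sulfate from iduronic acid, rose 2.52-fold (log2 fold change 1.33 ± 0.32, adjusted p = 0.00686), with 60.8 and 69.8 CPM with Combo and 9.05 and 9.93 CPM with DMSO in HL60, the line with its widest gap. Exons of IDS overlap AC244197.3 on the same strand over 16.5% of their length.

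Of the 8 proteins of lipid handling, 2 rose with ATRA and 4 rose with Combo, with median log2 fold changes of 0.10 with 552A, 0.93 with ATRA and 0.79 with Combo. NPC2, which carries cholesterol out of the lysosome together with NPC1, passed the test with Combo in every line, although not in OCIAML3 after the GC correction (0.39, adjusted p = 0.0917). In THP1 it had 107 and 101 CPM with 552A, 335 and 319.7 CPM with ATRA, 790.3 and 719 CPM with Combo and 67.7 and 55.97 CPM with DMSO. In HL60 it had 44.9 and 40.9 CPM with 552A, 301 and 329.7 CPM with ATRA, 673 and 599 CPM with Combo and 43.7 and 40.8 CPM with DMSO. HL60 thus had 552A libraries at the level of DMSO and Combo libraries above those with ATRA. In OCIAML3 ATRA was higher than Combo, with 87.4 and 81.8 CPM with ATRA, 59.4 and 51.96 CPM with Combo and 37.3 and 35.4 CPM with DMSO. In Kasumi1 it had 141 and 145 CPM with 552A, 88.9 and 80.8 CPM with ATRA, 137 and 151 CPM with Combo and 93.2 and 92.5 CPM with DMSO, with ATRA below DMSO. Across lines NPC2 rose 4.69-fold with Combo (log2 fold change 2.23 ± 0.44, adjusted p = 0.00181) and 3.04-fold with ATRA (log2 fold change 1.61 ± 0.42, adjusted p = 0.0268). Within Kasumi1 the adjusted p with Combo was 0.16 without its first DMSO library and 0.169 without its second. The call with ATRA was lost without any 1 line other than Kasumi1.

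PSAP had 346 and 467 CPM with 552A, 1484 and 1582 CPM with ATRA, 3093 and 2729 CPM with Combo and 260.03 and 249 CPM with DMSO in MOLM13. In MV411 it had 153 and 161 CPM with 552A, 1013 and 916 CPM with ATRA, 448 and 231 CPM with Combo and 124 and 74.7 CPM with DMSO. MOLM13 was highest with Combo and MV411 with ATRA, without overlap. In Kasumi1 PSAP had 621 and 947 CPM with Combo (GC slopes -0.67 and 0.18) and 875 and 794 CPM with DMSO, which overlap. Across lines it rose 3.59-fold with Combo (log2 fold change 1.84 ± 0.46, adjusted p = 0.00853) and 3.27-fold with ATRA (log2 fold change 1.71 ± 0.46, adjusted p = 0.0297). Without THP1 or MOLM13 the Combo change was 1.48 and 1.44, with adjusted p = 0.0571 and 0.0513, and the ATRA call was lost without MOLM13, MV411, OCIAML3 or THP1. Acid ceramidase (ASAH1), which releases sphingosine from ceramide, had 1794 and 2124 CPM with Combo and 112 and 126 CPM with DMSO in THP1. In HL60 it had 112 and 123 CPM with Combo and 154 and 141 CPM with DMSO, the one line in which Combo lay lower. Across lines it rose with Combo (log2 fold change 1.26 ± 0.38, adjusted p = 0.0224), a call lost without MOLM13, OCIAML3 or THP1 and with the GC correction (0.92, adjusted p = 0.0963). GM2A, the activator that lifts GM2 ganglioside out of membranes, rose by 0.88 ± 0.29 with Combo (adjusted p = 0.0359), a call lost without MOLM13, OCIAML3 or THP1.

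Both phosphatases rose with Combo and ACP2 also rose with ATRA. ACP2, lysosomal acid phosphatase, had 13.3 to 53.8 CPM (median 28.7) with ATRA, 12.3 to 57.7 CPM (median 23.9) with Combo and 8.22 to 29.04 CPM (median 16.7) with DMSO, and its changes were 0.72 ± 0.20 with ATRA (adjusted p = 0.0338) and 0.59 ± 0.20 with Combo (adjusted p = 0.0367). Its ATRA call was lost without any 1 line other than Kasumi1, and its Combo call without HL60, MOLM13, MV411 or THP1. ACP5, the tartrate-resistant acid phosphatase of osteoclasts and macrophages, was near 0 in most lines and had 6.69 and 5.99 CPM with Combo, against 0.396 and 0.486 CPM with DMSO, in MOLM13. It rose with Combo in the fit across lines (log2 fold change 1.69 ± 0.53, adjusted p = 0.0272), a call lost without MOLM13 or THP1. Most lines had few counts, such as MV411 with 2 and 0 counts with Combo and 1 and 0 with DMSO, so its size depends on the prior count.

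None of the 3 membrane glycoproteins passed the test against DMSO with any drug at day 4, and at day 2 LAMP2 did. LAMP1, an abundant protein of the lysosomal membrane, had 105 to 419.9 CPM (median 188) with 552A, 166 to 534 CPM (median 233) with ATRA, 126 to 485 CPM (median 247) with Combo and 119 to 389 CPM (median 175) with DMSO. The 4 ranges overlap almost entirely. Its log2 fold changes were 0.03 ± 0.14 with 552A (adjusted p = 0.985), 0.45 ± 0.14 with ATRA (adjusted p = 0.0593) and 0.38 ± 0.14 with Combo (adjusted p = 0.059). The ATRA change passed with DESeq2 (adjusted p = 0.0345), with the GC correction (0.0469) and without Kasumi1 (0.0119), and the Combo change passed with the GC correction (0.0249) and without Kasumi1 (0.0108). Without the 5 libraries that stand apart both passed (0.039 with ATRA and 0.016 with Combo). The 5 hold no ATRA or DMSO library, so the ATRA change without them rests on the same ATRA and DMSO libraries. At day 2 LAMP2, which also serves chaperone-mediated autophagy, rose with ATRA (log2 fold change 0.54 ± 0.12, adjusted p = 0.0183), a call lost without HL60, OCIAML3 or THP1. It also rose with Combo (log2 fold change 0.40 ± 0.12, adjusted p = 0.0216), a call lost without any 1 line other than Kasumi1 and with the GC correction (adjusted p = 0.0645). At day 4 LAMP2 had 595 and 573 CPM with ATRA and 295 and 290.3 CPM with DMSO in OCIAML3. The tetraspanin CD63 had 265 and 249.98 CPM with ATRA and 85.2 and 83.8 CPM with DMSO in HL60. Both gaps are wider than the spread of the duplicates, while Kasumi1 had 96.5 and 109 CPM of CD63 with ATRA and 129 and 124 CPM with DMSO. Progranulin, a secreted protein that lysosomes cut into granulins, did not pass the test either, with log2 fold changes of 0.60 ± 0.34 with 552A, 0.48 ± 0.35 with ATRA and 0.42 ± 0.36 with Combo.

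Of the 3 transcription factors, known to act on many of the genes above, TFEB rose with ATRA and with Combo, MITF rose with Combo, and TFE3 passed the test with no drug at day 4. TFEB had 9.27 and 10.3 CPM with 552A, 61.4 and 15.8 CPM with ATRA, 79.4 and 36.3 CPM with Combo and 8.31 and 7.88 CPM with DMSO in HL60. In THP1 it had 62.2 and 52.96 CPM with 552A, 91.1 and 46.8 CPM with ATRA, 141 and 44.1 CPM with Combo and 29.5 and 27.2 CPM with DMSO. In both lines every drug-treated library lay above both DMSO libraries, and duplicates with ATRA or Combo differed widely. Across lines TFEB rose 2.59-fold with ATRA (log2 fold change 1.37 ± 0.38, adjusted p = 0.0331) and 2.68-fold with Combo (log2 fold change 1.42 ± 0.38, adjusted p = 0.0115), and had 0.60 ± 0.37 with 552A (adjusted p = 0.818). The ATRA call was lost without any 1 line other than Kasumi1, and the Combo call without THP1 (1.33, adjusted p = 0.0527). MITF, the factor of pigment cells and osteoclasts, had 31.99 and 35.8 CPM with 552A, 12.6 and 16.1 CPM with ATRA, 91.1 and 107 CPM with Combo and 7.19 and 6.17 CPM with DMSO in THP1. In OCIAML3 it had 10.3 and 10.96 CPM with 552A, 0.795 and 1.80 CPM with ATRA, 9.24 and 11.04 CPM with Combo and 3.66 and 3.94 CPM with DMSO. In OCIAML3 552A and Combo lay above DMSO, and ATRA lay below it. MITF rose 3.19-fold with Combo across lines (log2 fold change 1.67 ± 0.47, adjusted p = 0.0152; without THP1 1.21, adjusted p = 0.082) and had -0.21 ± 0.45 with ATRA (adjusted p = 0.818) and 1.23 ± 0.45 with 552A (adjusted p = 0.424). TFE3 had 10.9 to 69.6 CPM (median 39.8) with ATRA and 11.4 to 36.95 CPM (median 17.5) with DMSO, and its changes of 0.04 ± 0.26 with 552A (adjusted p = 0.991), 0.80 ± 0.26 with ATRA (adjusted p = 0.064) and 0.68 ± 0.26 with Combo (adjusted p = 0.0606) did not pass. With the GC correction TFE3 rose with ATRA (0.91, adjusted p = 0.019) and with Combo (0.98, adjusted p = 0.00436).

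**Figure D4:**
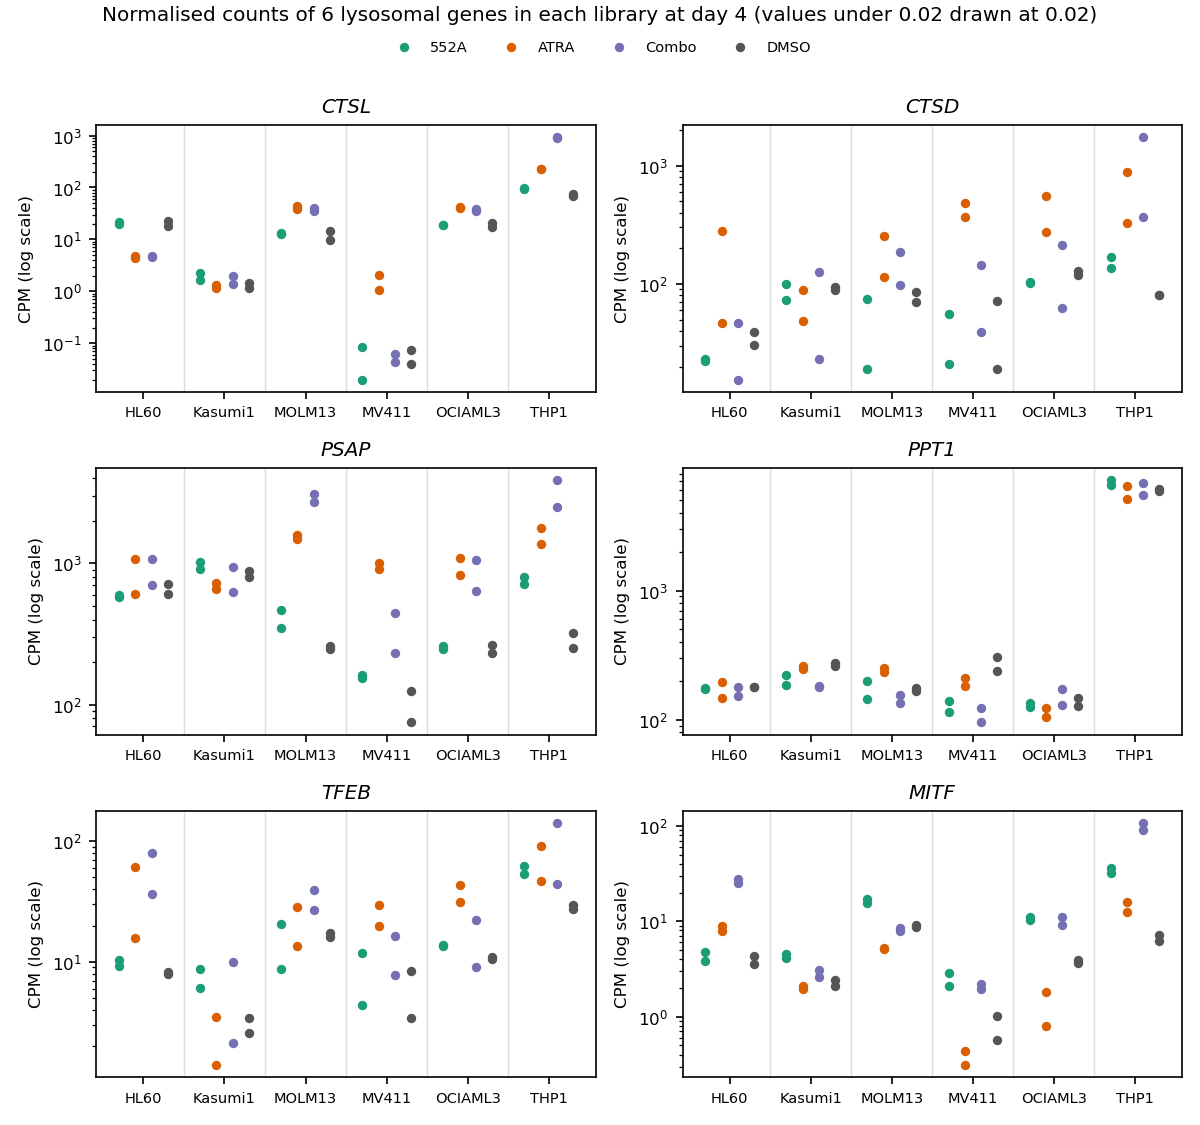
Level of CTSL, CTSD, PSAP, PPT1, TFEB and MITF at day 4 in each library (CPM, log axis; values under 0.02 are drawn at 0.02), by line and treatment (552A, ATRA, Combo, DMSO), with 1 point a library. CTSL is lower with ATRA and Combo than with DMSO in HL60 and higher in THP1, and PPT1 stands between 5082 and 7115 CPM in THP1 over its 8 libraries.

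In all, 21 of the 42 members passed the test with none of the drugs across lines at day 4. They include the sialidase NEU1, the enzymes GAA, GLA, GLB1, NAGLU and ARSA, known from storage diseases, the sphingomyelinase SMPD1, the protective protein CTSA and CTSL. Their log2 fold changes lay between -0.29 and 0.69 with 552A, -0.20 and 1.13 with ATRA, and -0.36 and 1.14 with Combo. The upper end with ATRA and Combo was CTSL in both cases, whose lines went in opposite directions. With the GC correction ARSA passed with ATRA (1.07, adjusted p = 0.0218) and Combo (1.0596, adjusted p = 0.0076), as did SMPD1 with ATRA (1.18, adjusted p = 0.0412) and Combo (1.0581, adjusted p = 0.0287). CTSA (0.86, adjusted p = 0.0323) and GAA (0.52, adjusted p = 0.0471) then passed with Combo.

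Combo also raised members at day 2, with LGMN, FUCA1 and NPC2 among them. In THP1 LGMN had 13.6 and 10.8 CPM with 552A, 22.8 and 29.9 CPM with ATRA, 169.8 and 159 CPM with Combo and 0.783 and 0.291 CPM with DMSO. FUCA1 had 9.34 and 7.61 CPM with 552A, 3.14 and 2.01 CPM with ATRA, 44.9 and 25.2 CPM with Combo and 0.518 and 0.68 CPM with DMSO in OCIAML3. NPC2 had 31.5 and 37.1 CPM with 552A, 92.6 and 97.4 CPM with ATRA, 263 and 219.7 CPM with Combo and 29.4 and 29.1 CPM with DMSO in HL60. In each of these 3 cases Combo stood above both single drugs on day 2, without overlap. Across lines at day 2 with Combo, SGSH (log2 fold change 3.88 ± 0.70, adjusted p = 0.00106), FUCA1 (log2 fold change 2.9995 ± 0.65, adjusted p = 0.00324), PSAP (log2 fold change 1.94 ± 0.37, adjusted p = 0.00166) and NPC2 (log2 fold change 1.81 ± 0.33, adjusted p = 0.00108) rose. CTSD (log2 fold change 1.79 ± 0.54, adjusted p = 0.0187), GRN (log2 fold change 1.47 ± 0.41, adjusted p = 0.0137), TFE3 (log2 fold change 0.70 ± 0.24, adjusted p = 0.0345) and SMPD1 (log2 fold change 0.97 ± 0.34, adjusted p = 0.0416) rose at day 2 and did not pass at day 4. PPT1 fell at day 2 (log2 fold change -0.64 ± 0.14, adjusted p = 0.00429), with lower Combo means in 6 of 6 lines, among them 111 and 86.5 CPM with Combo and 219.99 and 250.1 CPM with DMSO in HL60. DPP7 also fell at day 2 (log2 fold change -0.89 ± 0.32, adjusted p = 0.0443), a call lost without HL60, MOLM13, MV411 or OCIAML3 and with the GC correction (adjusted p = 0.0547). The day 2 calls of CTSD and GRN were lost without HL60 or THP1. Those of TFE3 and SMPD1 were lost without HL60 or THP1 too, that of TFE3 also without OCIAML3 and that of SMPD1 also without MOLM13 or MV411. With the GC correction CTSD, TFE3 and SMPD1 passed with Combo at day 4 as well.

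The smallest p values for 552A alone at day 4, after MAN2B1, belonged to CTSS (log2 fold change 0.93 ± 0.32, adjusted p = 0.334), SGSH (2.21 ± 0.79, adjusted p = 0.403) and MITF (1.23 ± 0.45, adjusted p = 0.424). At day 2 CTSS and SGSH did rise with 552A (log2 fold change 1.02 ± 0.24, adjusted p = 0.0334 for CTSS and log2 fold change 2.58 ± 0.67, adjusted p = 0.0473 for SGSH). The CTSS call was lost without any 1 line other than HL60, without the 5 libraries that stand apart (adjusted p = 0.0823) and with the GC correction (adjusted p = 0.0764), and the SGSH call without Kasumi1, MOLM13, MV411 or THP1. No member's response passed the test of a difference between day 4 and day 2 for any treatment, and neither did any of the 24021 genes tested. The smallest unadjusted p were 0.0155 for LAMP1 with ATRA, 0.0408 for MITF with Combo and 0.0698 for GRN with Combo, with differences of 0.51 ± 0.20, 1.31 ± 0.62 and -1.05 ± 0.56 on the log2 scale and an adjusted p of 1. In DMSO cells no member of the 40 tested differed between day 4 and day 2, nor did any of 18887 genes, and 7 members had an unadjusted p under 0.05. The smallest of these unadjusted edgeR p-values were 0.00177 for MANBA, a beta-mannosidase, with a difference of 0.45 ± 0.12 on the log2 scale, 0.0295 for NPC1, the cholesterol carrier of the lysosomal membrane (0.25), and 0.0358 for SGSH (0.57).

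Set against 552A alone at day 4, Combo raised 4 members and lowered none, where 4.56% of genes rose and 3.84% fell. They were NPC2 (log2 fold change 1.95 ± 0.43, adjusted p = 0.0135), PSAP (log2 fold change 1.52 ± 0.45, adjusted p = 0.0432), CTSB (log2 fold change 1.05 ± 0.28, adjusted p = 0.0287) and GUSB (log2 fold change 0.68 ± 0.18, adjusted p = 0.0256). NPC2 was lost without MV411 (adjusted p = 0.0513) or THP1 (0.0688), and the other 3 without any 1 line other than Kasumi1. DESeq2 called 10 members in this comparison, and the GC correction 7, adding CTSZ (1.003, adjusted p = 0.0296), ACP2 (0.78, adjusted p = 0.0167) and TFE3 (0.83, adjusted p = 0.0317). Set against ATRA alone, Combo raised no member at day 4 by edgeR and 1 by DESeq2, where 0.243% of genes rose and 0.0138% fell, and 3 members had an unadjusted p under 0.05. The smallest p there belonged to MITF (log2 fold change 1.88 ± 0.46, adjusted p = 0.0983), SGSH (log2 fold change 2.05 ± 0.76, adjusted p = 0.345), MAN2B1 (log2 fold change 0.56 ± 0.20, adjusted p = 0.325) and IDS (log2 fold change 0.63 ± 0.31, adjusted p = 0.499). At day 2 Combo raised 6 members over 552A (CTSB, GUSB, PSAP, NPC2, ACP2 and ACP5), where 2.29% of genes rose and 0.773% fell, and 2 over ATRA (CTSB and SGSH), where 0.87% rose and 0.0644% fell. Of the 6, none was called without THP1, 1 without MOLM13, 3 without HL60 or OCIAML3 and 4 without MV411, and 14 members were called without Kasumi1. Over ATRA, CTSB lost its call without any 1 line, and SGSH without any 1 line other than OCIAML3. No member differed from the sum of the separate drug effects on the log2 scale at either day by edgeR, and no gene did. At an unadjusted p under 0.05 there were 2 members at day 2 and none at day 4. The smallest p at day 4 belonged to GRN (-0.67 ± 0.49), TFEB (-0.55 ± 0.52), CTSZ (-0.44 ± 0.37) and MITF (0.64 ± 0.62), each with an adjusted p of 1.

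The lines did not respond alike. Over the 48 libraries of day 4, the drug effect of 31 of the 42 members (73.8%) differed between lines (adjusted p under 0.05, edgeR, 15 line-by-treatment terms), where 38.8% of all genes did. The smallest adjusted p were 6.35e-16 for NPC2, 7.16e-16 for FUCA1 and 4.65e-15 for CTSH. Within lines, called pairs of a member and a line numbered 25 higher and 1 lower with 552A, 86 higher and 8 lower with ATRA and 89 higher and 6 lower with Combo, each of 246 pairs tested. Of all gene and line pairs, 2.7% were higher and 1.01% lower with 552A, 8.52% were higher and 7.22% lower with ATRA and 12% were higher and 9.94% lower with Combo. The GC and length correction moved these counts by over 1.5 times, to 61 higher and 4 lower with 552A, 131 higher and 13 lower with ATRA and 141 higher and 15 lower with Combo. The shares of all pairs rose as well, to 5.88% higher and 4.57% lower with 552A, 13.5% higher and 14.2% lower with ATRA and 19.1% higher and 17.2% lower with Combo. Of the calls against DMSO, those of ASAH1 in Kasumi1 and NPC2 in OCIAML3, both with Combo, were lost with it.

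**Figure D5:**
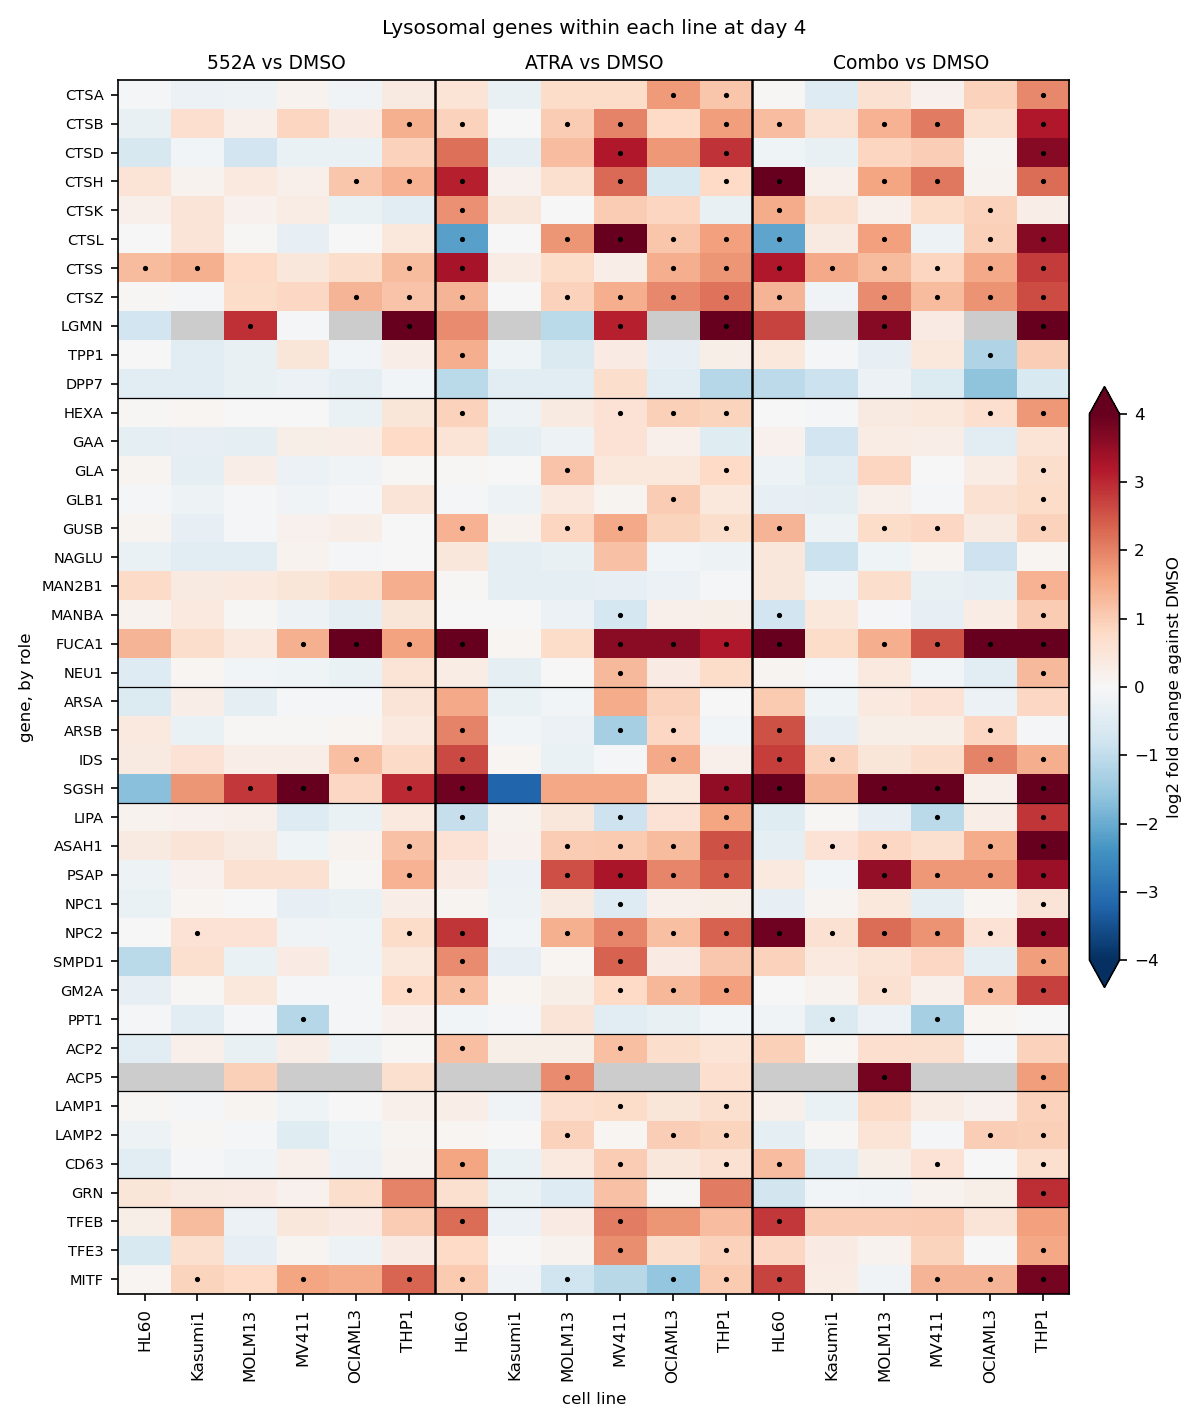
Log2 fold change against DMSO at day 4 of each member (rows, by role) in each line with 552A, ATRA and Combo (columns); colours are clipped at -4 and 4, dots mark adjusted p under 0.05 and grey marks members not tested. THP1 with Combo has 32 dots, all for higher levels, and Kasumi1 with ATRA has none.

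In THP1, 12 of 42 members rose with 552A and none fell, where 4.73% of all genes rose and 2.16% fell. With ATRA 23 rose and none fell, where 8.85% of all genes rose and 5.38% fell. With Combo 32 rose and none fell, where 18.8% of all genes rose and 16.8% fell. The median log2 fold changes of the members were 0.51 with 552A, 0.85 with ATRA and 1.60 with Combo. Beside LGMN and FUCA1, the largest rises with Combo were those of SGSH (log2 fold change 5.40 ± 0.66, adjusted p = 5.36e-05), ASAH1 (log2 fold change 4.0020 ± 0.20, adjusted p = 6.16e-08), MITF (log2 fold change 3.84 ± 0.24, adjusted p = 2.79e-07), CTSD (log2 fold change 3.66 ± 0.86, adjusted p = 0.00578), CTSL (log2 fold change 3.64 ± 0.13, adjusted p = 1.1e-08), NPC2 (log2 fold change 3.57 ± 0.14, adjusted p = 1.59e-08), PSAP (log2 fold change 3.43 ± 0.31, adjusted p = 4.73e-06) and CTSB (log2 fold change 3.19 ± 0.23, adjusted p = 7.27e-07). LIPA, the acid lipase of cholesteryl esters, rose by 2.86 ± 0.22 (adjusted p = 1.49e-06). GRN had 1045 and 861 CPM with 552A, 1363 and 727 CPM with ATRA, 2902 and 935 CPM with Combo and 237 and 244 CPM with DMSO in THP1. All drug-treated libraries lay above DMSO, with a wide gap between the Combo duplicates (log2 fold change 2.95 ± 0.67, adjusted p = 0.00483). PPT1 did not follow, with 5509 and 6807 CPM with Combo and 6114 and 5903 CPM with DMSO, which overlap. Set against ATRA directly, Combo was higher for 17 members of THP1 and lower for none, where 7.63% of all genes were higher and 7.69% lower. After the GC correction 29 were higher, where 20.1% of all genes were higher and 13.5% lower, and 23 members rose with 552A (9.85% of all genes), 32 with ATRA (14.7%) and 38 with Combo (27.9%).

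In MV411 fewer members rose with both drugs than with ATRA alone. The second DMSO library of day 4 had a GC slope of -0.58, and each comparison with DMSO here uses it. With 552A, 3 of 41 members rose and 1 fell, where 3.24% of all genes rose and 1.7% fell. With ATRA 20 rose and 4 fell, where 11.9% of all genes rose and 13.9% fell, and with Combo 11 rose and 2 fell, where 12.7% of all genes rose and 13.6% fell. Set against ATRA directly, Combo was higher for 4 members and lower for 10, where 10.9% of all genes were higher and 8.2% lower, so that the higher ones were a share near that of all genes and the lower ones a larger share. After the GC correction 8 rose and 3 fell with 552A (8.34% and 6% of all genes), 26 rose and 6 fell with ATRA (18.2% and 21.3%), and 21 rose and 4 fell with Combo (23.2% and 19.3%), and Combo was higher than ATRA for 5 and lower for 13 (17.5% and 12.1%). LGMN was lower with Combo (log2 fold change -2.79 ± 0.45, adjusted p = 0.00117), as were PSAP (log2 fold change -1.53 ± 0.30, adjusted p = 0.00374), FUCA1 (log2 fold change -1.05 ± 0.26, adjusted p = 0.0149) and CTSD (log2 fold change -2.23 ± 0.67, adjusted p = 0.0358). CTSD had 143 and 39.5 CPM with Combo and 364 and 481 CPM with ATRA. The second Combo library has a GC slope of -0.74, and without it the CTSD difference was -1.60 with an adjusted p of 0.24. CTSL, nearly silent in MV411, had 71 counts with ATRA, 2 with Combo and 3 with DMSO over the pair of libraries, a ratio of ATRA to DMSO of 25.9 (exact 95% interval 8.53 to 129, counting error only) and of ATRA to Combo of 29.7 (7.92 to 249.8). Arylsulfatase B (ARSB), which acts on dermatan sulfate, did the opposite, with 87.98 and 102 CPM with Combo, 28.8 and 35.1 CPM with ATRA and 74.9 and 84.6 CPM with DMSO. It fell with ATRA (log2 fold change -1.32 ± 0.22, adjusted p = 0.00085) and was higher with Combo than with ATRA (log2 fold change 1.55 ± 0.22, adjusted p = 0.000549), as was MITF (log2 fold change 2.46 ± 0.47, adjusted p = 0.00349). PPT1 had 139 and 114 CPM with 552A, 95.3 and 124 CPM with Combo and 239 and 306 CPM with DMSO, and fell with 552A (log2 fold change -1.15 ± 0.20, adjusted p = 0.00478) and with Combo (log2 fold change -1.33 ± 0.20, adjusted p = 0.000335). The call with 552A was lost without the second 552A library (-0.99, adjusted p = 0.0676).

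In HL60, 1 of 41 members rose with 552A, where 0.781% of all genes rose and 0.139% fell, 19 rose and 2 fell with ATRA, where 16.2% of all genes rose and 14.6% fell, and 14 rose and 2 fell with Combo, where 15.2% of all genes rose and 14.3% fell. The member that rose with 552A was CTSS (log2 fold change 1.26 ± 0.20, adjusted p = 0.00733), a call with adjusted p = 0.0323 to 0.104 when 1 library was left out. FUCA1 had the largest rise with ATRA (log2 fold change 5.24 ± 0.42, adjusted p = 2.81e-06). CTSL was low with ATRA and Combo in HL60, with 21.6 and 19.7 CPM with 552A, 4.74 and 4.39 CPM with ATRA, 4.65 and 4.89 CPM with Combo and 22.6 and 17.99 CPM with DMSO. It fell with ATRA (log2 fold change -2.18 ± 0.26, adjusted p = 6.34e-05) and with Combo (log2 fold change -2.11 ± 0.26, adjusted p = 7.12e-05). In THP1 the same gene had 95.5 and 95.6 CPM with 552A, 223 and 230.4 CPM with ATRA, 900.5 and 918 CPM with Combo and 74.6 and 67.3 CPM with DMSO. ARSB rose in HL60, with 109.7 and 123 CPM with ATRA and 29.3 and 28.1 CPM with DMSO, the opposite of MV411. CTSL, ARSB, LIPA and MITF were the 4 members called higher with ATRA in some lines and lower in others. LIPA fell in HL60 (-0.91 ± 0.25, adjusted p = 0.0152) and MV411 (-0.83 ± 0.20, adjusted p = 0.00839) and had 188 and 230.3 CPM with ATRA and 68.2 and 68.4 CPM with DMSO in THP1. When 1 library was left out, the adjusted p of LIPA reached 0.0938 in HL60 and 0.116 in MV411. After the GC correction 3 members of HL60 rose with 552A (1.79% of all genes), 28 rose and 3 fell with ATRA (21.7% and 21% of all genes), and 23 rose and 6 fell with Combo (21.5% and 21.4%).

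In OCIAML3, 4 of 40 members rose with 552A, where 1.86% of all genes rose and 0.803% fell. With ATRA 14 rose and 1 fell, where 8.71% of all genes rose and 5.78% fell, and with Combo 14 rose and 1 fell, where 9.98% of all genes rose and 5.14% fell. FUCA1 had the largest rise among called members with 552A (log2 fold change 5.30 ± 0.42, adjusted p = 7.52e-05), ATRA (log2 fold change 3.62 ± 0.41, adjusted p = 0.000152) and Combo (log2 fold change 7.40 ± 0.46, adjusted p = 2.55e-06), and Combo exceeded ATRA (log2 fold change 3.79 ± 0.38, adjusted p = 0.000396). MITF fell with ATRA (log2 fold change -1.55 ± 0.38, adjusted p = 0.0181), with adjusted p = 0.0152 to 0.154 when 1 library was left out. TPP1, a tripeptidyl peptidase, had 59.4 and 47.4 CPM with Combo and 101 and 137 CPM with DMSO, and fell (log2 fold change -1.19 ± 0.23, adjusted p = 0.00518), with an adjusted p of up to 0.0669 when 1 library was left out. After the GC correction 9 members of OCIAML3 rose with 552A (4.08% of all genes), 28 rose and 3 fell with ATRA (17.2% and 15.5%), and 24 rose and 1 fell with Combo (16.6% and 15.2%).

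In MOLM13, 2 of 42 members rose with 552A, where 1.28% of all genes rose and 0.314% fell. With ATRA 10 rose and 1 fell, where 5% of all genes rose and 3.41% fell, and with Combo 14 rose and none fell, where 8.11% of all genes rose and 5.93% fell. LGMN rose with 552A (log2 fold change 2.92 ± 0.60, adjusted p = 0.0276) and MITF fell with ATRA (log2 fold change -0.80 ± 0.21, adjusted p = 0.0359), and both calls were lost without any 1 of their 4 libraries. PSAP rose most with ATRA (log2 fold change 2.58 ± 0.26, adjusted p = 3.93e-05). After the GC correction 7 members of MOLM13 rose with 552A (2.82% of all genes), 17 rose and 1 fell with ATRA (8.38% and 8.53%), and 25 rose and 1 fell with Combo (13% and 12.3%). In Kasumi1, 3 of 40 members rose with 552A, where 4.28% of all genes rose and 0.867% fell, so that the members' share was not far from that of all genes. None was called there with ATRA, where 0.0889% of all genes rose and 0.0167% fell. With Combo 4 members of Kasumi1 rose and 1 fell, where 6.9% of all genes rose and 3.36% fell. The day 4 Combo libraries of this line had GC slopes of -0.67 and 0.18. CTSS had 164 and 175 CPM with 552A, 201 and 158 CPM with Combo and 60.9 and 62.9 CPM with DMSO, and rose with 552A (log2 fold change 1.41 ± 0.18, adjusted p = 0.000506) and Combo (log2 fold change 1.503 ± 0.18, adjusted p = 0.000225). PPT1 fell with Combo in Kasumi1 (log2 fold change -0.59 ± 0.14, adjusted p = 0.02), with adjusted p = 0.00999 to 0.177 when 1 library was left out. After the GC correction 11 members of Kasumi1 rose and 1 fell with 552A (8.3% and 6.08% of all genes), none was called with ATRA, and 10 rose and 3 fell with Combo (11.7% and 9.98%).

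Genes of the same organelle outside the 42 were described from 6 lists of 84 genes, of which 83 were tested. These lists too were chosen with earlier results of these data known, so their shares are a description only. Of all genes, 4.66% rose and 3.26% fell with ATRA and 13.5% rose and 11.7% fell with Combo at day 4. None of their genes passed with 552A at day 4, and the smallest p with that drug were those of SORT1 (1.42 ± 0.35, adjusted p = 0.105) and GNPTAB (0.72 ± 0.18, adjusted p = 0.116). Of 17 subunits of the V-ATPase, the proton pump that acidifies lysosomes, 4 rose with ATRA and 7 rose with Combo, and none fell, with median log2 fold changes of 0.42 with ATRA and 0.48 with Combo, against -0.01 and 0.02 for all genes. ATP6V1E1 and ATP6V1D had the smallest p with ATRA (0.67 ± 0.14, adjusted p = 0.00988 and 0.70 ± 0.16, adjusted p = 0.0154), and ATP6V1A and ATP6V1H with Combo (0.79 ± 0.17, adjusted p = 0.00321 and 0.52 ± 0.12, adjusted p = 0.00609). Of 8 genes for mannose 6-phosphate tagging or for sorting of lysosomal proteins, none rose with ATRA and 3 rose with Combo. Among them were GNPTAB, the phosphotransferase that makes the tag (1.45 ± 0.18, adjusted p = 0.000167), and the sorting receptor SORT1 (1.74 ± 0.35, adjusted p = 0.00228). Of 18 other hydrolases, 3 rose with ATRA and 4 with Combo, with the smallest p for the cathepsin CTSO (log2 fold change 2.28 ± 0.38, adjusted p = 0.000681 with Combo). Of 18 other membrane proteins, 2 rose with ATRA and 5 with Combo, with the smallest p for OSTM1, the partner of the chloride transporter CLCN7 (1.11 ± 0.20, adjusted p = 0.00576 with ATRA), and LAPTM4A (1.46 ± 0.21, adjusted p = 0.000287 with Combo). Of 5 inhibitors of cathepsins, 1 fell, CST7, cystatin F, with -3.11 ± 0.68, adjusted p = 0.0134 with ATRA and -3.48 ± 0.69, adjusted p = 0.0021 with Combo. Of 17 genes of mTORC1 and its regulators, 2 rose with ATRA (LAMTOR3 and RRAGA), and 3 rose and 1 fell with Combo, with the smallest p for FNIP2 (1.66 ± 0.31, adjusted p = 0.00147) and, falling, RPTOR (-0.49 ± 0.14, adjusted p = 0.0165). The medians with ATRA and Combo were 0.35 and 0.28 for the tagging and sorting genes, 0.36 and 0.40 for the hydrolases, 0.30 and 0.39 for the membrane proteins, 0.16 and -0.02 for the inhibitors and 0.19 and 0.13 for the mTORC1 genes. With Combo the risers were 41.2% of the V-ATPase subunits, 37.5% of the tagging and sorting genes, 27.8% of the membrane proteins, 22.2% of the hydrolases and 17.6% of the mTORC1 genes, the last of which is near the share of all genes.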

How the data were processed

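RNA of the 96 samples was extracted with TRIzol and an RNeasy column and made into strand-marked TruSeq libraries, per the labels' protocols. The deposited table holds raw read counts per Ensembl gene, which the authors made with Trimmomatic 0.36, STAR 2.4.2a and HTSeq 0.6.0 on GRCh38, per the submitters' processing notes. The annotation release and the strand setting are not given in the sources used here. Of 60552 rows, 56994 matched GENCODE 29. The 3558 rows that did not, with 0.0417% of the counts, stayed out of the tests. Libraries held 12822146 to 40954794 counts, so genes with few counts have wide errors.

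Counts were tested with edgeR 4.0.16 (quasi-likelihood F test, TMM scaling, filterByExpr on groups, Benjamini-Hochberg adjustment over all genes tested, threshold 0.05) in R 4.3.3. For the fits across lines, counts of the 2 replicates were added, and each day's 24 sums entered a model with the line as a block. Within lines, the 16 libraries of a line were fitted with 8 groups. All 42 members passed the filter in the fits across lines, and 40 to 42 passed within a line. Differences between lines or days were tested as interaction terms. CPM are TMM-scaled. The error after ±, unless SD is named, is an approximate standard error. It is the absolute log2 fold change divided by the square root of the F statistic of edgeR's test. Alternatives were DESeq2 1.42.0, no filter, a trend correction for GC content and length, a replicate block, leaving out each library or line, and leaving out 5 libraries that stand apart. Scripts were tested on simulated counts.

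The members and lists were chosen with earlier results of these data known. Members described are, by rule, the 6 largest rises and falls called across lines at day 4 in each comparison, or the 4 smallest p where fewer than 2 were called, the largest rise and fall called in each line, the 3 smallest p in the tests between lines, between days and with DMSO, and CTSD, LAMP1, TFEB, TFE3 and MITF. Up to 2 genes with the smallest p are named from each other list, apart from 1 gene that is not reported here. ARSB, ASAH1, IDS, GM2A, HEXA, LIPA, CTSK, ACP2, LAMP2 and CD63, and further lines for the members above, were added after their values were seen. Tests of Combo against each single drug within a line were also added after seeing the data.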

Additional observations from a re-analysis of the deposited data

Results flagged for a closer look

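Line values were screened in 75 groups, 72 of 6 lines and 3, those of LGMN, of 4 lines. Some of the members screened were named for a large change in 1 line, so a rate by chance does not apply. In 6 of the 75 groups, 1 line lay far from the nearest other line. With 552A at day 4 these were FUCA1 in OCIAML3 (log2 fold change 5.30), GRN in THP1 (1.98) and MAN2B1 in THP1 (1.44). With Combo at day 4 these were CTSD in THP1 (3.66), CTSH in HL60 (5.95) and GRN in THP1 (2.95). Each value is the highest of its 6 lines. The GRN and CTSD duplicates of THP1 with Combo differed several fold, and their part in the result was not tested.

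The drug effect of 31 members differed between lines in a test of the line-by-treatment terms. Its spread is that of duplicate libraries, so differences between lines and between cultures may not be told apart. The smallest adjusted p were those of NPC2 (6.35e-16), FUCA1 (7.16e-16) and CTSH (4.65e-15).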

How the results depend on the processing

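No result changed its direction under any alternative. Counts of members called across lines moved by over 1.5 times as follows, and the cause was not tested. With DESeq2 the count at day 2 was 13 with ATRA, 17 for Combo over 552A and 5 for Combo over ATRA, and at day 4 it was 19 with ATRA, 10 for Combo over 552A and 1 for Combo over ATRA. With the GC and length correction it was 11 with ATRA and 10 for Combo over 552A at day 2, and 7 for Combo over 552A at day 4. Without the 5 libraries that stand apart it was 1 with 552A at day 2. Leaving out 1 line gave 0 to 2 with 552A, 0 to 12 with ATRA, 14 to 23 with Combo, 0 to 14 for Combo over 552A and 0 to 1 for Combo over ATRA at day 2. At day 4 it gave 0 to 0 with 552A, 1 to 18 with ATRA, 10 to 22 with Combo, 0 to 10 for Combo over 552A and 0 to 0 for Combo over ATRA. The count for Combo beyond the sum was 0 to 0 on both days.

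Replicate numbers were taken as pairing only where same-numbered libraries deviate together. Correlations of their deviations ran from -0.858 to 0.935, and in no line were all over 0.1, so the numbers were not treated as pairs. A replicate block across lines keeps the libraries apart and so counts libraries rather than lines as replicates. With it the counts at day 2 were 6 with 552A, 16 with ATRA, 23 for Combo over 552A and 8 for Combo over ATRA, and at day 4 4, 23, 22 and 2. With the replicate block and the GC and length correction they were 7, 26, 26 and 12 at day 2, and at day 4 6, 30, 28 and 4, with 33 with Combo.

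Pairs of member and line called within lines also rose with the GC and length correction. Day 2 had 47 with 552A, 112 with ATRA, 138 with Combo, 114 for Combo over 552A and 80 for Combo over ATRA, and day 4 had 65, 144, 156, 136 and 90. With the replicate block and that correction day 2 had 59, 119, 153, 124 and 97, and day 4 had 76, 153, 166, 141 and 112. Without a filter on low counts Combo over ATRA had 62 at day 2. Leaving out 1 library gave 19 to 47, 53 to 62, 79 to 87, 60 to 93 and 25 to 39 at day 2, and 23 to 26, 86 to 98, 87 to 112, 69 to 93 and 43 to 65 at day 4. The 47 came without the first OCIAML3 552A library and the 25 without the first THP1 ATRA library, both of day 2. Tests of single members stayed on the same side of the threshold, called or not called, in 2153 of the alternatives run. They lost a call in 127 and gained one in 98. With 2 libraries a group and a few counts in some lines, small changes of LGMN, ACP5 and SGSH were not detectable at this depth.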
